A study of Nasonia vitripennis with 7 samples.

Results

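The regions described here are 389 peaks of DNA bound by the doublesex protein (DSX) of the parasitoid wasp Nasonia vitripennis, out of 2307 peaks in all (16.9%, exact 95% binomial interval 15.4 to 18.5). Each has, as the listed DSX site nearest to its summit, a site whose centre lies at most 25 bases from that summit and which the authors' motif search listed on both DNA strands. The 389 are called the centred both-strand peaks below. They make up 44.5% (41.2 to 47.9) of the 874 peaks with any listed site. The data came from DAP-seq: protein synthesised in vitro is immobilised and used to capture the fragments it binds from purified genomic DNA. The DNA was taken from whole bodies of the AsymCX strain and broken to a target of 150 bases. DSX enriched 4 libraries, and luciferase, an enzyme with no DNA binding of its own used as the control, enriched 3 libraries. All 7 libraries were made from naked DNA, without chromatin or other proteins, so binding in cells was not measured. The labels do not say which DSX isoform was made, and the names of 2 DSX libraries hold the letter F and of the other 2 the letter M without explanation.

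Doublesex is the last switch of the cascade that sets sex in insects, and its transcripts are spliced differently in females and males. The protein carries a DM domain, a zinc-binding module first described in Drosophila DSX and the related worm protein MAB-3, which contacts DNA mainly in the minor groove. DM-domain proteins bind as pairs on a nearly palindromic site, each partner reading one side of a shared core. A site of this kind can therefore be read from either strand, and the bases that flank the core on each side form a left and a right flank.

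Each match in the authors' table spans 12 bases, which are the core of 7 bases with 2 flanking bases on its left and 3 on its right. Where both strands are listed, the matches are shifted by 1 base against each other and together give 13 bases, with a flank of 3 bases on each side of the core. Sites are printed below on the strand with the better score, with the core in capitals. Each flank is named as read toward the core, so the site aatACATTGTttc has the left flank AAT and the right flank GAA. The 389 sites comprised 137 different sequences of 13 bases, of which 61 occurred once. The 10 commonest are shown because most flank combinations discussed below are built from them:

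AAT with GAA, centre T: aatACATTGTttc
AAT with CAT, centre T: aatACATTGTatg
TAT with TAT, centre T: tatACATTGTata
AAT with GAA, centre A: aatACAATGTttc
TAT with GAA, centre T: tatACATTGTttc
GAT with GCA, centre A: gatACAATGTtgc
AAT with AAT, centre T: aatACATTGTatt
GAT with GAA, centre T: gatACATTGTttc
AAT with TAT, centre T: aatACATTGTata
TAT with GAA, centre A: tatACAATGTttc

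They occurred in 26, 15, 13, 11, 11, 10, 9, 7, 7 and 7 of the centred both-strand peaks, in that order. Copies of the commonest lay on 19 scaffolds, and copies of the fourth on 7.

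Which site was nearest, its distance from the summit and its listing on both strands chose these peaks, so the bases and scores below describe the selection and carry no test. Peak strength below means the −log10 of q or p, whichever of them the authors deposited. Strength is read here as DSX over luciferase, since the labels call luciferase the negative control and no peak-calling settings were given. Strength was not used in the choice, but the motif was found by the authors in these same peaks, so strength and sequence are not independent. Both files pool the libraries. Depth and the spread between libraries are thus unknown, a peak need not be present in every DSX library, and no test between groups of peaks was made. Medians carry exact 95% order-statistic intervals, which cover the spread among listed peaks only. Strengths were also coarse: the 389 peaks had 272 different values, 181 peaks shared theirs with another of the 389, and 7 stood at 4.94. Positions are counted from 1 on RefSeq scaffolds. No source used here names the genome build, and genes near the sites were not analysed here.

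The centred both-strand peaks were stronger than the list at large. Their median strength was 10.04 (8.99 to 10.7). The quartiles were 5.92 and 15.2, the lowest value 2.18 and the highest 169. Peaks with a site as close to the summit but listed on 1 strand had a median of 6.79 (6.18 to 7.92, n = 217). Where the nearest site lay beyond 25 bases the median was 6.03 (5.20 to 6.67, n = 268), without any listed site it was 4.52 (4.19 to 4.69, n = 1433), and over all 2307 peaks it was 5.73 (5.40 to 6.004). A strength over 10 was reached by 195 of the 389 (50.1%, 45.05 to 55.2), against a background of 26.4% of all listed peaks. It was reached by 69 of the 217 peaks with a close site on 1 strand (31.8%, 25.7 to 38.4).

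**Figure D1:**
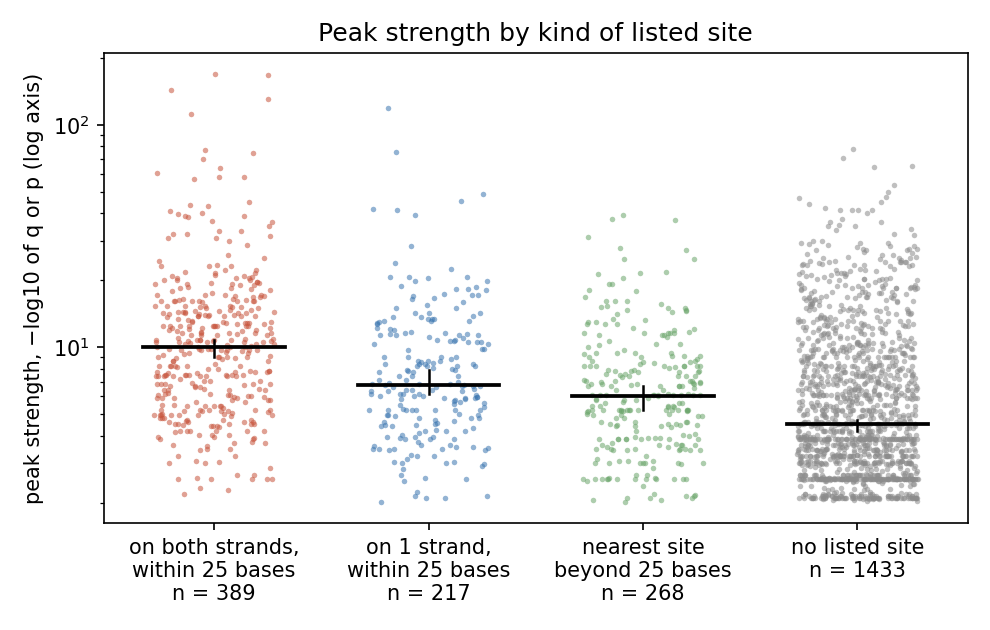
Peak strength (−log10 of q or p, log axis) of each listed peak, one point per peak, grouped by where its nearest listed DSX site lies and on how many strands it is listed. Thick bars are medians and thin bars their 95% order-statistic intervals; the median of 10.04 in the both-strand group stands above the other 3, whose intervals end at 7.92 or lower.

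Distance and strand listing went together with strength. Among sites beyond 25 bases, those on both strands had a median strength of 6.47 (5.63 to 7.08, n = 114) and those on 1 strand 5.44 (4.97 to 6.18, n = 154), and these intervals overlapped. Within 3 bases of the summit the medians were 10.7 (9.69 to 12.5, n = 169) for sites on both strands and 8.13 (6.17 to 10.3, n = 62) for sites on 1 strand. From 4 to 9 bases they were 10.7 (9.12 to 11.8, n = 119) and 6.55 (5.59 to 8.37, n = 78), the only one of the 3 distance ranges in which the intervals were separate. From 10 to 25 bases they were 6.80 (5.95 to 8.71, n = 101) and 6.36 (5.49 to 7.92, n = 77).

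A site listed on both strands also tended to score better on its better strand, with a median of 15.7 (15.6 to 15.8) against 13.7 (13.2 to 14.2) for close sites on 1 strand. Peaks were therefore set side by side within ranges of that score. At scores of 15 to under 17 the median strength was 10.6 (9.62 to 12.4, n = 156) for sites on both strands and 8.30 (6.61 to 10.7, n = 42) for sites on 1 strand. At 17 or more it was 13.7 (11.7 to 16.1, n = 98) and 11.5 (7.74 to 19.8, n = 22). From 13 to under 15 the medians were 7.43 (6.43 to 8.22, n = 90) and 5.59 (4.91 to 6.61, n = 65). Below 13 the order was turned round, at 6.03 (4.94 to 7.51, n = 45) and 6.42 (5.93 to 8.71, n = 88). The intervals of the medians overlapped in all 4 ranges, so a difference in median strength at equal score was not resolved. The share of peaks with a strength over 10 had separate intervals only from 13 to under 15. There it was 33.3% (23.7 to 44.05) for sites on both strands and 12.3% (5.47 to 22.8) for sites on 1 strand. Below 13 this share was lower for sites on both strands, at 8 of 45 against 29 of 88, with overlapping intervals.

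The share of centred both-strand peaks was higher in the stronger part of the list, which was ordered by strength and cut into 10 bins of 230 or 231 peaks. It was 2.60% (0.959 to 5.57) in bin 1, the weakest, 18.2% (13.4 to 23.8) in bin 5, 34.6% (28.5 to 41.2) in bin 9 and 30.4% (24.6 to 36.8) in bin 10. The share of peaks with a close site on 1 strand was 3.46% (1.51 to 6.71) in bin 1, 11.7% (7.85 to 16.5) in bin 5, 10.8% (7.13 to 15.6) in bin 9 and 9.13% (5.74 to 13.6) in bin 10. Of the 20 peaks in the whole list with a strength over 50, 13 were centred both-strand peaks.

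The core itself hardly varied. All but 1 of the 389 sites (99.7%, 98.6 to 99.99) held ACATTGT or its reverse complement ACAATGT. These are 1 sequence read from opposite strands, and they differ in the central base, T or A. The remaining site held ACAAAGT, in a peak of strength 4.81. Among the 217 close sites on 1 strand, 146 held the exact core (67.3%, 60.6 to 73.5), and 61 held ACTTTGT or its reverse complement (28.1%, 22.2 to 34.6), which differs from the core at 1 position. On the better strand T was central in 263 of the centred both-strand sites (67.6%, 62.7 to 72.2). Those peaks had a median strength of 10.6 (9.42 to 11.6), against 8.70 (7.62 to 10.3) for the 126 with A. Because the better strand is the one closer to the authors' motif, this split is in part set by the motif.

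The flanks were drawn from a small set. Of 64 possible flanks of 3 bases, 31 were seen among the 778 flanks of the 389 sites, and the 5 commonest made up 67.4% of them. These were AAT (139 flanks), GAA (138), TAT (94), CAT (85) and GAT (68). The 2 inner bases, next to the core, were AT in 386 flanks (49.6%), AA in 235 (30.2%), CA in 63 (8.10%), CT in 33 and TT in 27. Left and right differed on the better strand. AT was the inner pair of 268 left flanks (68.9%) and of 118 right flanks (30.3%), while GAA stood on the right in 119 sites and on the left in 19, and GCA on the right in 45 and on the left in 1. The strand was chosen by the score, and the highest score, 18.45, went to sites with AT on the left and GAA on the right, so this asymmetry follows in part from the reading.

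AT as the inner pair was present on both flanks of 84 sites (21.6%, 17.6 to 26.02), on 1 flank of 218 (56.04%, 50.95 to 61.04) and on neither flank of 87 (22.4%, 18.3 to 26.8). If left and right flanks were combined freely from the 778, 95.8, 194 and 98.8 sites would fall in these classes, so mixed sites were somewhat more frequent than the product. The threshold on both strands shapes these combinations, and the departure is a description only.

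Peaks whose sites had AT on both flanks were the stronger ones. Their median strength was 12.9 (11.5 to 14.2), against 9.25 (7.74 to 10.7) with AT on 1 flank and 7.98 (6.67 to 9.86) with AT on neither. The interval for both flanks lay above the other 2, and those 2 overlapped. A strength over 10 was reached by 60 of 84 peaks (71.4%), 102 of 218 (46.8%) and 33 of 87 (37.9%) in the same order. That share was 50.1% over the 389 and 26.4% over all listed peaks. The single strongest peaks did not follow this order, at 144 with AT on both flanks, 169 with AT on 1 flank and 76.96 with AT on neither.

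**Figure D2:**
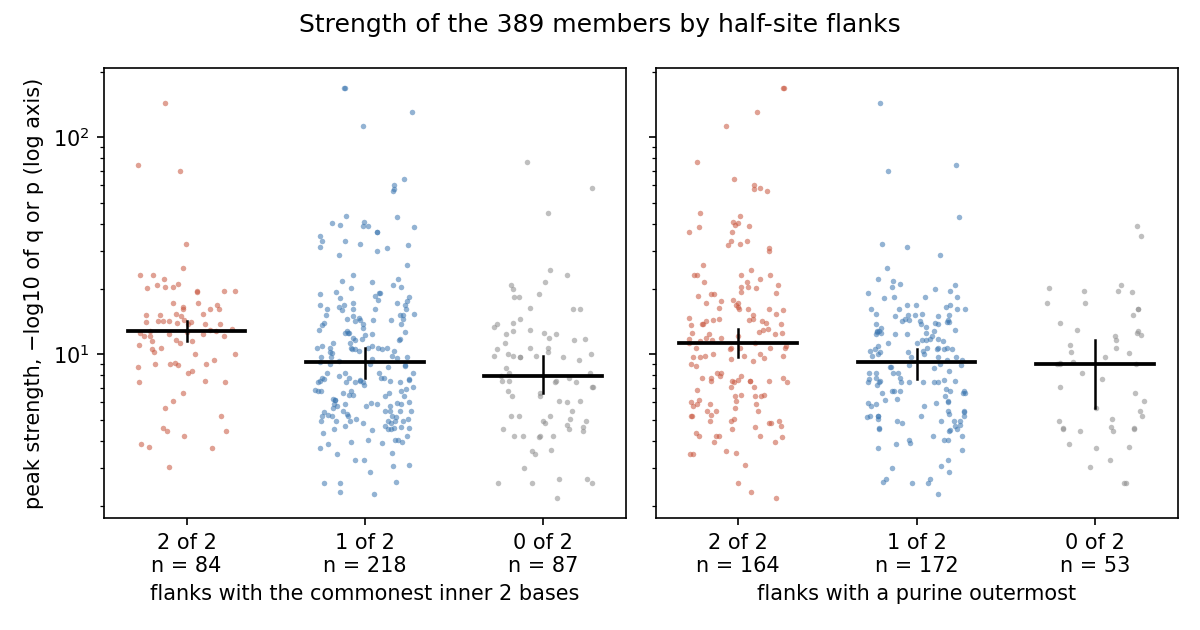
Peak strength (−log10 of q or p, log axis) of the 389 centred both-strand peaks, one point per peak. Left, by how many of the 2 flanks have AT, the commonest inner pair, next to the core; right, by how many have a purine as the outermost base. Thick bars are medians and thin bars their 95% order-statistic intervals; on the left the medians are 12.9, 9.25 and 7.98 for 2, 1 and 0 flanks, and on the right 11.3, 9.20 and 9.03.

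The gap between AT on both flanks and on neither was present at each distance from the summit. Within 3 bases the medians were 13.8 (11.3 to 16.8, n = 32) and 9.37 (6.67 to 10.7, n = 33). From 4 to 9 bases they were 12.3 (10.04 to 14.2, n = 30) and 9.75 (7.51 to 11.95, n = 28), with overlapping intervals. From 10 to 25 bases they were 13.3 (6.67 to 15.02, n = 22) and 5.32 (4.42 to 7.44, n = 26), again overlapping. On long scaffolds, those with a last summit at 7 Mb or beyond, the medians were 11.6 (9.12 to 14.2, n = 53) and 7.24 (5.18 to 9.84, n = 62). On the other scaffolds they were 14.001 (12.4 to 16.1, n = 31) and 10.6 (7.51 to 12.5, n = 25), and the intervals overlapped slightly in both sets. AT on 1 flank had 9.69 (7.73 to 11.3, n = 131) on long scaffolds. On the other scaffolds it had 8.95 (6.80 to 10.7, n = 87), below AT on neither flank. With each of the 137 sequences counted once at its median, the values were 12.1 for 16 sequences and 7.29 for 43. On the 8 scaffolds with at least 3 peaks of each kind, the median was higher with AT on both flanks on 7, and lower on NW_022279651.1, at 10.04 against 11.95. AT on 1 flank had a higher median than AT on both flanks on 4 of the same 8 scaffolds. The minimum of 3 peaks was not applied to AT on 1 flank, and NW_022279589.1, among these 4, had 2 such peaks.

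Single positions of the flanks were set out in the same way. A in the middle of both flanks went with a median strength of 11.04 (10.1 to 12.4, n = 259), and A in 1 of them with 7.51 (6.43 to 9.19, n = 124), and these intervals were separate. The 6 sites with A in the middle of neither flank had a median of 8.87 (3.60 to 11.95). T next to the core on both sides went with 10.6 (8.96 to 12.1, n = 133), T on 1 side with 10.3 (8.81 to 11.6, n = 186) and T on neither with 8.22 (6.67 to 10.3, n = 70), all overlapping. The outermost base was a purine on both flanks of 164 sites, with a median strength of 11.3 (9.75 to 13.05), on 1 flank of 172, with 9.20 (7.71 to 10.6), and on neither flank of 53, with 9.03 (5.66 to 11.6), all overlapping. A purine there, mirrored as a pyrimidine on the other side, is part of the consensus known for Drosophila DSX.

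Score and strength ranked the flank classes differently. Sites with AT on 1 flank had the highest median score on the better strand, 16.2, against 15.7 for AT on both flanks and 14.6 for neither. On the weaker strand the order changed: AT on both flanks gave 14.4, AT on 1 flank 11.7 and neither 12.2. The gap between the strands was thus widest for the mixed sites, at a median of 4.22, and 1.23 in the other 2 classes. Across the 389 peaks, strength had a Spearman's rho of 0.351 with the better score and of 0.251 with the weaker score; these are relations across peaks of the same pooled libraries, and copies of 1 sequence share their scores. With 1 value for each of the 137 sequences, rho was 0.385 and 0.302.

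**Figure D3:**
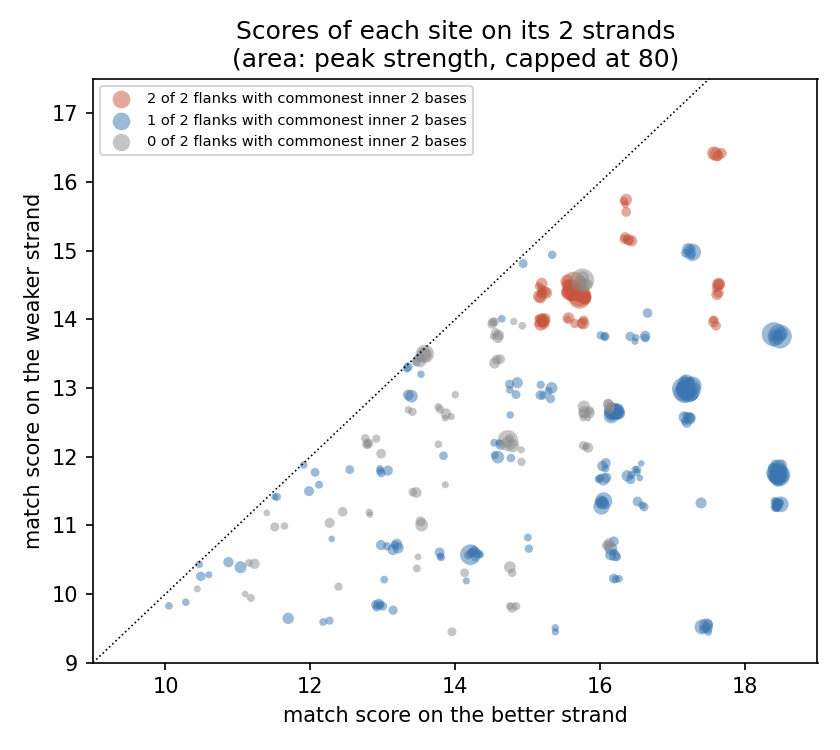
The authors' match score of each of the 389 sites on its better strand (horizontal axis) and weaker strand (vertical axis), with the area of a point growing with peak strength and colour giving the number of flanks with AT, the commonest inner pair. Points are shifted by up to 0.06 to separate copies; sites with AT on both flanks lie high on the weaker strand (median 14.4), while mixed sites reach the highest better score (18.45).

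Strength also varied between exact combinations of flanks. There were 100 unordered pairs of 3-base flanks, 44 of them seen once, and the 8 pairs with at least 10 peaks covered 133 of the 389. The commonest was AAT with GAA, in 37 peaks on 22 scaffolds, where free combination gives 24.7. Its median strength was 16.4 (12.7 to 20.4) and 30 of the 37 exceeded 10. Over the 389 peaks 50.1% exceeded 10, and over all listed peaks 26.4%. The second, AAT with CAT, had 20 peaks, a median of 14.2 (12.9 to 20.97), and 18 peaks over 10. Of these 20, 6 were copies of aatACATTGTatg within 25.3 kb on NW_022279624.1, and the other 14 had a median of 14.2 (10.5 to 22.3). TAT with GAA had a median of 10.5 (6.61 to 12.4, n = 18) and TAT with TAT 8.99 (3.73 to 19.3, n = 13). TAT was not lower than AAT with every partner: with TAA, TAT had a median of 12.5 (n = 7) and AAT 7.32 (n = 6). The interval of TAT with GAA lay below that of AAT with GAA, but without 5 peaks that hold a second site 11 bases away, described below, AAT with GAA had 14.99 (10.7 to 19.3, n = 32) and the intervals overlapped. Some pairs of common flanks were rarer than free combination gives. AAT with GAT had 3 peaks against 12.1, GAA with GAA 5 against 12.2, AAT with GCA 3 against 8.22, and AAT with TAT 10 against 16.8.

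The pair GAT with GCA had the highest median of the 8, at 25.8 (7.51 to 33.2, n = 12), and it was seen 12 times where free combination gives 4.02. That median rested on 6 copies, called edge copies below, 5 with a summit in the first 20 kb of a scaffold and 1 at the last listed summit. Scaffold lengths were not available, so the last of these need not lie near a scaffold end, and this grouping was not planned beforehand. The 6 edge copies had a median of 32.5 (29.9 to 36.6). The other 6 had a median of 10.7 (2.32 to 21.6), below that of most of the 8 pairs. GAT with GAA had 16.2 (7.62 to 40.9, n = 13) and CAT with GAA 14.9 (6.18 to 31.1, n = 10). GAA with GCA, in 9 peaks, had 21.6 (9.86 to 44.99). The flank GCA differed in strength by its partner: next to GAT or GAA it had a median of 21.6 (13.9 to 31.7, n = 21), and next to any other flank 10.5 (6.24 to 14.3, n = 24), with a small overlap of the intervals. Without the 6 edge copies the first value was 19.1 (8.22 to 23.2, n = 15), with a wider overlap. This split of the GCA sites was chosen after their values were seen. Flanks with low medians included AAA, at 5.45 (4.19 to 7.44, n = 25), CAA, at 6.80 (5.02 to 9.75, n = 32), and GTT, at 6.86 (4.69 to 7.98, n = 21). Of the 21 sites with GTT, 3 exceeded 10, against 50.1% of the 389 and 26.4% of all listed peaks.

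The 10 copies of gatACAATGTtgc lay on 8 scaffolds with strengths of 36.6, 33.3, 33.2, 31.7, 30.9, 29.9, 21.6, 19.1, 7.51 and 2.32. The first 6 are the edge copies, on 5 scaffolds, and lay within 29.9 to 36.6, above the other 4. Whether the edge copies belong to 1 repeated stretch of DNA was not tested. The strongest, at NW_022279598.1:5635-5647 on the minus strand, was the strongest of all sites pairing an AT with a CA flank. The weakest had its summit 13 bases from the site, while the other 9 had theirs within 6 bases.

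Inner pairs gave a coarser view of the same order, with 9 combinations of at least 10 peaks covering 363 of the 389. AT with AT had 12.9 (11.5 to 14.2, n = 84), AT with CA 12.9 (5.32 to 21.6, n = 29; 9.69 without the 6 edge copies, n = 23), AT with AA 10.7 (9.32 to 12.7, n = 122), AA with CA 10.2 (7.07 to 16.3, n = 26) and AA with AA 9.37 (6.12 to 12.4, n = 33). The remaining 4 combinations lay lower: AA with CT had 7.47 (4.19 to 11.3, n = 14), AT with TT 7.15 (5.80 to 7.98, n = 26), AT with CT 7.07 (5.20 to 10.7, n = 15) and AT with AG 6.84 (4.94 to 13.2, n = 14). The strongest peak of each of these 4 had a strength of 13.8 for AA with CT, 58.1 for AT with TT, 19.2 for AT with CT and 15.02 for AT with AG.

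Sites with the same flank on both sides numbered 38 (9.77%, 7.01 to 13.2). They had a median strength of 12.7 (10.7 to 16.1), against 9.75 (8.23 to 10.5) for the 351 sites with unequal flanks. A strength over 10 was reached by 27 of the 38 (71.1%) and 168 of the 351 (47.9%), against 26.4% of all listed peaks. Equal-flank sites with TAT (13 sites), AAT (9), CAT (4) and GAT (4) also have AT as the inner pair on both flanks. That class had a median of 12.9, so equal flanks and AT on both flanks were not separated here. The full palindromic flanks of gatACATTGTatc were found in 4 peaks, with strengths of 23.3, 23.2, 12.4 and 11.5. These 4 sites had the best score of all on the weaker strand (16.4). A pair of the 4, with strengths of 23.2 and 12.4, lay on NW_022279589.1 with centres 2558 bases apart. The 13 copies of tatACATTGTata ran from 3.01 to 19.5, and the 9 of aatACATTGTatt from 4.19 to 32.2. At the opposite extreme of the weaker strand, gttACAATGTagc scored 9.47 there, in a peak of strength 7.98 with its summit 1 base from the site.

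Exchanging the central base between unchanged flanks gave no common direction. For the 10 combinations with at least 3 peaks of each form, the median was higher with A in 5 and with T in the other 5. GAT with GAA had a median of 9.78 with A (n = 6) and 22.3 with T (n = 7), and TAT with GAA had 10.7 with A (n = 7) and 10.4 with T (n = 11). AAT with GAA had 38.6 with A (7.74 to 168, n = 11) and 15.7 with T (10.9 to 20.1, n = 26). That first value rested on 5 peaks with a second site 11 bases away, described next: without them the 6 remaining peaks with A had a median of 10.6 (4.36 to 60.6), below the value with T.

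The strongest centred both-strand peaks stood at the top of the whole list. Those ranked 1, 2, 3 and 4 among all 2307 peaks were centred both-strand peaks, and 9 of the 15 strongest peaks overall were among the 389. The site aatACAATGTttc occupied ranks 1 and 2, at NW_022279649.1:5110383-5110395 (strength 169) and NW_022279651.1:2707963-2707975 (strength 168), both on the plus strand with the summit 3 bases to the right of the centre. Rank 3 was catACATTGTatt at NW_022279652.1:1019672-1019684 (strength 144), with AT on both flanks. Rank 4 was gatACATTGTttc at NW_022279591.1:3357315-3357327 (strength 131), and another copy at NW_022279632.1:464891-464903 (strength 112) had rank 6 in the whole list. All 5 had their summit 3 bases to the right of the centre. The other 5 copies of gatACATTGTttc had strengths from 8.99 to 23.2.

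Further down, gaaACATTGTttc, with GAA on both flanks and AT on neither, had its strongest copy at NW_022279606.1:7823340-7823352 (strength 76.96). A pair of copies of aatACATTGTatg at NW_022279624.1:1234740-1234752 (strength 74.5) and NW_022279624.1:1233913-1233925 (strength 69.96) lay 827 bases apart, the closest spacing of any neighbouring centred both-strand sites. The site gaaACATTGTtgc followed at NW_022279642.1:3177978-3177990 (strength 58.2), and gttACATTGTatt at NW_022279625.1:771185-771197 (strength 58.1). The site aatACAATGTttc came back 3 more times in the 15 strongest, with strengths of 63.9, 60.6 and 56.9, all on NW_022279606.1. The last of the 15 were gaaACAATGTtgc on NW_022279642.1 (strength 44.99) and aatACATTGTttc on NW_022279598.1 (strength 43.6).

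A recurring arrangement of several sites marked part of these strong peaks. Of the 389 peaks, 355 (91.3%) held 1 distinct site, 29 held 2, 2 held 3 and 3 held 4. With 2 or more the median strength was 12.7 (9.75 to 19.1, n = 34), against 9.75 (8.22 to 10.7, n = 355) for peaks with 1. In 5 of them, all with aatACAATGTttc at the summit, a second site listed on 1 strand followed 11 bases to the right, and their strengths were 169, 168, 63.9, 56.9 and 38.6. All 3 peaks with 4 sites shared the whole layout, with further sites 341 and 352 bases to the left, and the site at 352 bases again matched the summit site in its 12 listed bases. Leaving out these 5, the median with 2 or more sites was 12.2 (9.19 to 13.8, n = 29). Whether these peaks lie in copies of a longer repeat was not tested, and no source used here says how reads mapping to several places were handled. Among the 34 peaks the 42 additional sites lay 9 to 352 bases from the nearest one, 14 of them listed on both strands and 33 with the exact core.

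Summits lay close to the sites and on either side of them. The median distance from centre to summit was 4 bases (quartiles 2 and 10). It was 6 bases (3 and 14) for close sites on 1 strand. A summit within 3 bases was found in 169 peaks (43.4%, 38.5 to 48.5), against 62 of the 217 peaks with a close site on 1 strand (28.6%, 22.7 to 35.1). In the frame of the better strand, 176 summits lay left of the centre, 182 lay right of it and 31 fell on it. The left share of 49.2% (43.9 to 54.5) had an interval that includes 50%. The 5 strongest peaks, at 3 bases to the right, were among 27 peaks at that offset.

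**Figure D4:**
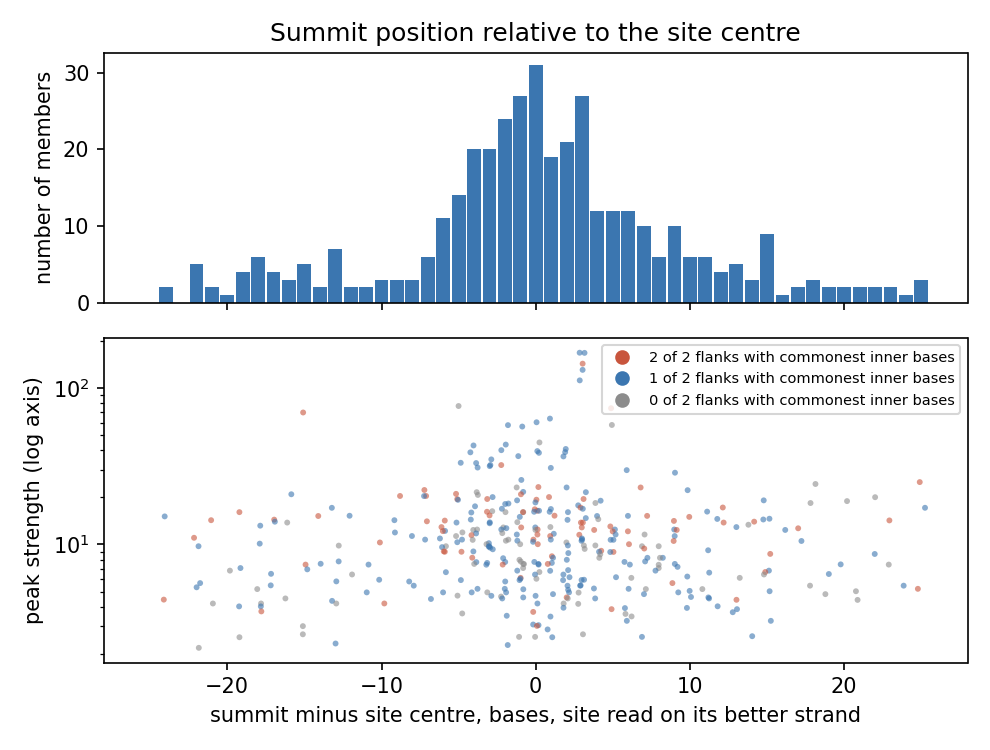
Top, number of centred both-strand peaks by the position of the summit relative to the centre of the site, in bases, with the site read on its better strand. Bottom, peak strength (log axis) at the same positions, coloured by the number of flanks with AT, the commonest inner pair; 31 summits fall on the centre, 176 to the left and 182 to the right, and the 5 strongest stand 3 bases to the right.

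At the distance limit, 3 peaks had their site exactly 25 bases away, with strengths of 25.1, 17.2 and 5.20, and the 6 peaks just outside, at 26 bases, had strengths from 5.003 to 20.4. The sites inside the limit were aatACATTGTatg, aatACATTGTttc and catACATTGTata, and catACATTGTata was also among those just outside it, with a strength of 5.20 inside and 7.02 outside.

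The centred both-strand peaks lay on 57 of the 81 scaffolds that carry peaks, with a median spacing of 387 kb. Only 5 neighbouring pairs of them were closer than 5 kb, and 4 of these pairs held the same sequence of 13 bases. On the 11 scaffolds whose last summit lies at 7 Mb or beyond they made up 246 of 1033 peaks (23.8%, 21.2 to 26.5), and on the other 70 scaffolds 143 of 1274 (11.2%, 9.54 to 13.1). All peaks were weaker on the long scaffolds, with a median of 4.81 (4.51 to 5.18), than on the short ones, with 6.54 (6.18 to 6.96). The centred both-strand peaks had medians of 9.65 (8.23 to 10.5) on long and 10.7 (9.19 to 12.4) on short scaffolds, with overlapping intervals. Among the 11 scaffolds with at least 10 of them, their share of the peaks ran from 18.5% on NW_022279611.1 to 34.2% on NW_022279650.1, and their median strength from 6.42 on NW_022279627.1 to 13.4. NW_022279588.1 had a share below that range, with 4 of 83 peaks (4.82%). Several scaffolds with fewer peaks also had low shares, such as NW_022279610.1 with 2 of 43 and NW_022279590.1 with 0 of 32.

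**Figure D5:**
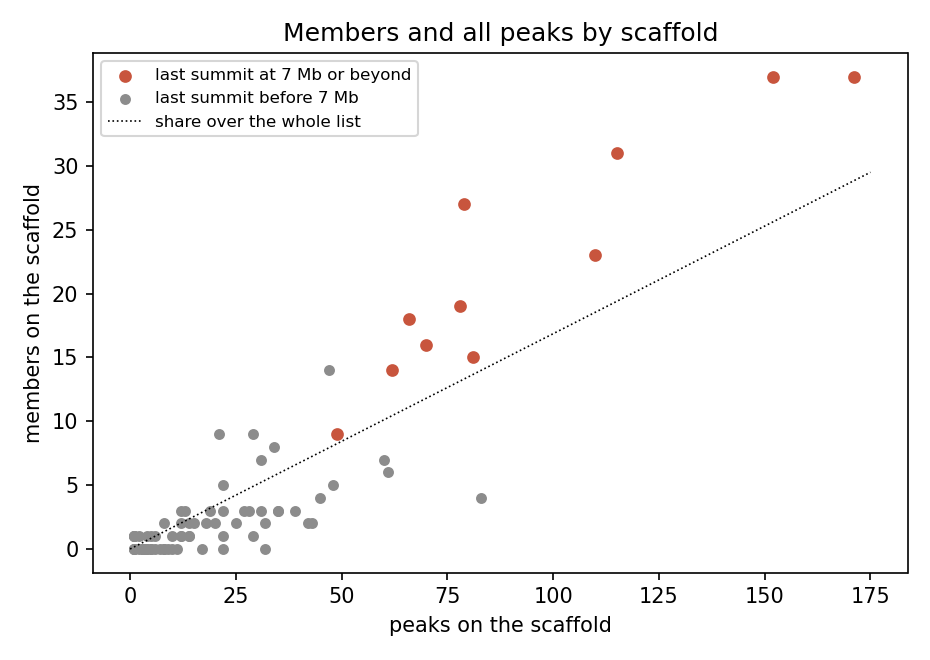
Number of centred both-strand peaks (vertical axis) and of all listed peaks (horizontal axis) on each scaffold, one point per scaffold. The dotted line is their share of 16.9% over the whole list; the 11 long scaffolds lie above it, and NW_022279588.1, with 4 of 83 peaks, lies below it, as do several scaffolds with fewer peaks.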

How the data were processed

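The labels name the protein of each DAP-seq library, DSX in 4 and luciferase in 3. The submitters' processing notes list cutadapt, bedtools 2.28.0, MACS2 2.2.5 and Bowtie2 2.3.5.1 without settings. The authors deposited 1 peak list, with a summit base and a −log10 of q or p per peak (all above 2), and 1 table of matches with, per the file headers, a score and a q-value for each match (its p-value, also deposited, was not used). FIMO 5.1.0 made that table with a motif found by MEME in all positive peaks together, per the file footer.

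Matches with the same centre on opposite strands were joined to 1 site, and each site was given to its nearest summit. The distance, strand listing and reading of flanks were tested on simulated data. Intervals are exact (Clopper-Pearson for shares, order statistics for medians). Depth per library is unknown. The planned side of the better flank could not be scored separately, so the left side of the better-scoring strand was used. The peaks named are the 15 strongest, those with the 10 commonest sequences, the strongest of each flank class, those at the distance limit, and those with the best and poorest weaker score. No scaffold name matched the gene table (RefSeq, Nvit_psr_1.1), so genes were left out. The members, lists and comparisons were chosen with earlier results of these data known. Alternatives were other distance limits, stricter peaks and sites, single copies and single-site peaks. Tables were handled with pandas 2.3.3 and numpy 2.4.6 under python 3.11.15, intervals computed with scipy 1.17.1, and plots drawn with matplotlib 3.10.9.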

Additional observations from a re-analysis of the deposited data

How the results depend on the processing

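Of 53 alternatives over 7 results, 2 could not change the value by their construction (the flank count read on the other strand, and the flank difference without the 11-base pairs). Of the other 51, 32 left the value within its 95% interval (for the flank classes, both medians within theirs) and 19 moved it. The strength difference between AT on both flanks and on neither was 4.88 and stayed above 0 in the 13 alternatives that could move it. The scaffold and distance subsets, the versions without the 11-base pairs and without the local copies of aatACATTGTatg, and the single copies at their median strength were chosen after seeing the data. The share of the list was 12.9% with a limit of 10 bases, 20.5% with 50 bases, 25.7% in the stronger part of the list and 4.51% with q under its median on both strands. In the stronger part of the list the median strength was 12.4, the core share 100% and the flank difference 3.24. That cut selects on strength itself, so the median could not fall. The flank difference was there taken among peaks already chosen by strength. With the stricter q the median strength was 12.4, the core share 100%, the share with AT on both flanks 80.8% and the median weaker score 14.4, since a stricter q selects on those bases. A limit of 50 bases gave a core share of 98.3%. With each sequence counted once, at its strongest peak, AT stood on both flanks in 11.7%, summits lay left of the centre in 55.9%, the median weaker score was 11.85, and the flank difference was 10.4, since copied sequences then give their highest value. The corresponding difference was 2.295 with classes by outermost purine, 3.43 on short scaffolds and 7.94 at 10 to 25 bases, where the cause was not tested. No paired analysis was possible because neither file holds values of a single library. Depth per library is unknown.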
